A study of Mus musculus with 8 samples.

Results

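The 9 genes described here belong to the vascular endothelial growth factor (VEGF) system and were followed in cardiac endothelial cells (EC) of healthy mice and of mice after myocardial infarction (MI). They were the receptors Kdr, Flt1 and Flt4, the neuropilins Nrp1 and Nrp2, and the ligands Vegfa, Vegfb, Vegfc and Pgf, taken by name as 9 of the 16791 genes in the deposited table of counts. All 9 passed the filter on low counts over all EC. The table came from 8 adult Pdgfb-iCreERT2-R26R-Brainbow2.1 mice, 4 healthy (mice 227, 228, 239 and 240) and 4 with MI (mice 244, 250, 255 and 256). All mice had been given 1 dose of 150 mg/kg tamoxifen 21 days before collection, which switches on a fluorescent Confetti reporter in cells where the Pdgfb promoter drives Cre. In the MI group the left anterior descending artery had been tied off for good 7 days before collection. The healthy mice had no surgery, so effects of the operation and of the infarction cannot be told apart. Ventricular cells that were positive for CD31 and Confetti and negative for podoplanin were sorted, and each heart gave 1 library of 3′ ends. The data therefore describe blood vessel EC of the Pdgfb lineage and hold few of the other heart cells that make VEGF.

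VEGF-A binds VEGFR2, the product of Kdr, which carries the main angiogenic signal in blood vessel endothelium. VEGFR1, the product of Flt1, binds VEGF-A tightly but signals weakly and also occurs as a soluble decoy, and it is the receptor for VEGF-B and placental growth factor (Pgf). VEGFR3 (Flt4) is the receptor for VEGF-C, is prominent in lymphatic endothelium and is used by sprouting blood vessels. The neuropilins are co-receptors, with Nrp1 associated with arterial and Nrp2 with venous and lymphatic endothelium during development. In the heart, cardiomyocytes and stromal cells are known as major sources of VEGF-A and VEGF-B.

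Levels are given as CPM, the unique molecular identifiers (UMIs) of a gene scaled to 1000000 UMIs over the EC of that mouse. A UMI stands for 1 captured transcript end, so CPM can be set side by side between genes without division by length. Of 31028 cells, 1450 haematopoietic-like cells, 798 pericyte-, fibroblast-, erythroid- and platelet-like cells and 2108 copied EC were removed, which left 26672 EC, with between 1590 and 4761 per mouse. A cluster of 616 cells led by cardiomyocyte genes such as Myl2 was kept among the EC, and so was a lymphatic-like one. The copies are cells that occur with the same barcode and at least 90% of their UMIs on the same genes in another library, which was true of 53.5% of EC in Healthy 228 and 10.6% in Healthy 227. Of the pairs, 2030 joined Healthy 228 to Healthy 239 and 301 joined Healthy 227 to Healthy 228, the cell with fewer UMIs was taken as the copy, and how the copies arose was not tested. The EC of a mouse held from 4845445 to 7577773 UMIs in the healthy group and from 14284248 to 23543109 in the MI group. The summed level of 8 endothelial markers, such as Pecam1 and Cdh5, lay between 5791 and 6670 CPM in healthy and between 6276 and 6715 CPM in MI mice, and none of the 8 was called. The summed level of 16 haematopoietic markers lay between 26.6 and 158 CPM in healthy and between 286 and 535 CPM in MI mice, with 9 of the 13 tested called higher. For 8 fibroblast markers the sums were 10.3 to 33.9 and 27.8 to 65.3 CPM, with 4 of 7 tested called higher and 1 lower, and for 10 pericyte and smooth muscle markers 55.2 to 163 and 74.8 to 106 CPM, with 3 of 8 called higher and 1 lower. The part of these cells in the results was not tested. Groups were compared over mice with edgeR's quasi-likelihood test on counts summed per mouse, fitted on 12256 genes, and a gene was called at a Benjamini-Hochberg adjusted p under 0.05. The p-values set the difference between groups against the spread between these mice, which edgeR moderates over all genes.

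After MI, 3 of the 9 genes were lower over all EC, namely Kdr, Flt1 and Nrp1, and 2 were higher, namely Vegfb and Pgf. The background in this comparison was high. Of all genes tested, 19.1% were called lower and 18.8% higher, so 3 of 9 and 2 of 9 are not read as particular to these genes. The mice of the groups did not overlap for 6 of the 9 genes, against 35.9% of all genes tested. The shares of the EC classes described further on differed between the groups, and their part in the changes over all EC was not tested. Scaling by library size alone in place of TMM moved the split of calls over all genes from 2305 higher and 2335 lower to 2952 higher and 1740 lower, and the 5 members kept their call and direction under it.

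The 2 receptors of blood endothelium that fell together, Kdr and Flt1, lie on chromosome 5. Their upstream sequences are shown because the pair fell over all EC yet came apart in the classes described further on. Kdr (ENSMUSG00000062960) is on the minus strand of GRCm38 at chr5:75932827-75978458, and Flt1 (ENSMUSG00000029648) on the minus strand at chr5:147561604-147726011. The 250 bases before the RefSeq start of each gene (GRCm38.p6) are printed 5′ to 3′ on the strand of the gene, at chr5:75978456-75978705 for Kdr and chr5:147726012-147726261 for Flt1. Capitals mark matches on either strand to the GC box GGGCGG and the TATA box TATAAA, and no match overlapped another.
Kdr: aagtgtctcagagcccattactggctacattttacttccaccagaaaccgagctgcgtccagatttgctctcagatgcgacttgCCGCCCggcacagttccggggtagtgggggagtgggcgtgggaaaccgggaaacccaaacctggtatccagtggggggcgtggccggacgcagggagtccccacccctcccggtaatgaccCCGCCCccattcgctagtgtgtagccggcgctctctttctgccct
Flt1: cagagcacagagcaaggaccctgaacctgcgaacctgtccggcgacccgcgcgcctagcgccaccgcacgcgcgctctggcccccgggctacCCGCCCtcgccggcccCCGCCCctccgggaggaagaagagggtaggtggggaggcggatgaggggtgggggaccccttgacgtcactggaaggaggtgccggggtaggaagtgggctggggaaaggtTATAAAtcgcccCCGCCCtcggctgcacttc
The Kdr window held 2 GC boxes and the Flt1 window 3, while 32.7% of the 32851 windows of the same length in the RefSeq table held at least 1. The TATA box matched in Flt1 alone of the pair, and 12.4% of all windows held one. Other letters searched, the hypoxia response core ACGTG (16.6% of all windows), ACCGGAA (2.90%) and CAGGAA (25.7%), the last 2 being forms of the ETS core, had no match in either window. A match is a stretch of letters and not a measured site.

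Kdr stood at 938, 926, 733 and 831 CPM in Healthy 227, 228, 239 and 240 and at 455, 509, 400 and 589 CPM in MI 244, 250, 255 and 256. Every MI mouse was below every healthy mouse. The mean fell from 857 ± 95.7 to 488 ± 80.8 CPM (SD, n = 4 mice each), a log2 fold change of -0.90 ± 0.14 (SE, edgeR adjusted p = 0.00124). A sum over cells cannot tell fewer cells with a transcript from less transcript per cell. The share of cells with a UMI, counted in cells thinned to 1000 UMIs, depends largely on the mean level at that depth and does not separate them either. On this scale 55.4% ± 4.09 of healthy and 39.3% ± 4.88 of MI cells held a Kdr UMI (SD, n = 4 mice each). Without thinning the shares were 77.9% and 82.4%, at a median of 1866 to 2753 UMIs per cell in the healthy group and 3396 to 4677 in the MI group.

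Flt1 stood at 797, 691, 654 and 619 CPM in the healthy mice and at 380, 445, 421 and 536 CPM in the MI mice, in the same order of mice. Again the groups did not overlap, and MI 256 was the highest of the MI mice for both receptors. The mean fell from 690 ± 77.02 to 446 ± 66.0 CPM (log2 fold change -0.72 ± 0.12, SE, edgeR adjusted p = 0.00218). The thinned share of cells with a Flt1 UMI was 53.6%, 48.8%, 46.6% and 45.2% in the healthy mice and 31.3%, 36.7%, 34.3% and 41.7% in the MI mice. Cells with a UMI of both receptors made up between 24.2% and 32.4% of the cells in healthy and between 12.2% and 19.5% in MI mice. Cells with neither made up from 21.0% to 27.5% and from 32.3% to 44.3%. The shares with Kdr alone (25.4% to 29.1% in healthy, 21.4% to 26.0% in MI) and with Flt1 alone (18.2% to 22.4% and 17.9% to 22.2%) overlapped between the groups.

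**Figure D1:**
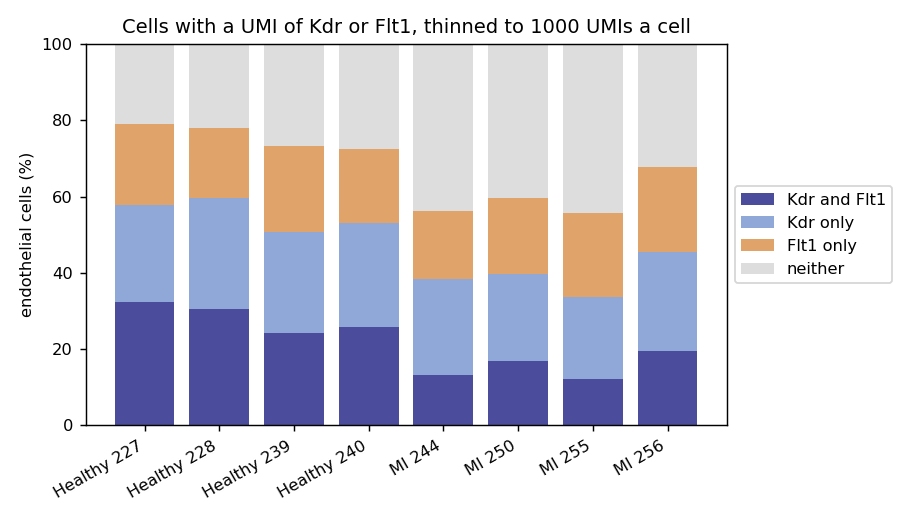
Share of EC in each mouse (y axis, percent of cells thinned to 1000 UMIs) with a UMI of Kdr and Flt1, of Kdr only, of Flt1 only or of neither, as stacked bars for 4 healthy and 4 MI mice. The share with both is at most 19.5% in MI mice and at least 24.2% in healthy mice.

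As both receptors fell, their UMI ratio moved less than either level. Flt1 to Kdr was 0.849, 0.746, 0.891 and 0.745 in the healthy mice and 0.836, 0.872, 1.05 and 0.910 in the MI mice. The groups overlapped, and the difference of 0.110 between the means (0.808 ± 0.0741 and 0.918 ± 0.0952, SD) was not called (two-sided exact permutation test over 70 splits, p = 0.143, where 0.0286 is the smallest p possible).

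Flt4 (chr11:49609263-49652739, plus strand) was low and did not pass the test. It stood at 41.2, 40.9, 45.7 and 43.7 CPM in the healthy and at 38.5, 39.0, 36.2 and 47.1 CPM in the MI mice. MI 256 was the highest of all 8 mice and the other 3 MI mice were below all healthy mice. The log2 fold change was -0.18 ± 0.10 (SE, edgeR adjusted p = 0.191), and without MI 256 it was -0.26 with an adjusted p of 0.0276. A cluster of 56 lymphatic-like cells, led by Prox1, Lyve1 and Ccl21a, was kept among the EC, although the sort had selected against podoplanin. Its level of Flt4 was 441 CPM, but as 56 of 26672 cells it gave only 2.91% of the Flt4 UMIs.

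Nrp1 (chr8:128358604-128503363, plus strand) was the most abundant of the 9 genes. Its level was 1148, 1138, 1038 and 1192 CPM in the healthy mice and 778, 946, 713 and 832 CPM in the MI mice. No MI mouse reached the lowest healthy mouse. The mean fell from 1129 ± 65.3 to 817 ± 98.7 CPM (log2 fold change -0.55 ± 0.10, SE, edgeR adjusted p = 0.00275), and the thinned share of cells with a UMI was 64.9% ± 1.18 and 54.6% ± 4.90. Nrp2 (chr1:62703285-62818695, plus strand) did not share this fall. It stood at 272, 252, 239 and 255 CPM in the healthy and at 278, 301, 268 and 270 CPM in the MI mice, with Healthy 227 inside the range of the MI mice. The log2 fold change was 0.05 ± 0.07 (SE, edgeR adjusted p = 0.650).

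The balance of the neuropilins moved in all mice. The UMI ratio of Nrp2 to Nrp1 was 0.237, 0.221, 0.231 and 0.214 in the healthy mice and 0.357, 0.318, 0.376 and 0.324 in the MI mice. The lowest MI mouse was above the highest healthy mouse, and the means were 0.226 ± 0.0101 and 0.344 ± 0.0275 (SD, n = 4 mice each). The difference of 0.118 gave the smallest p that 70 splits allow (two-sided exact permutation test, p = 0.0286).

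Among the ligands, Vegfc and Pgf were the ones that EC held in some amount. Vegfa (chr17:46016993-46032369, minus strand) had only 19 to 128 UMIs per mouse. Its levels were 3.15, 4.75, 2.77 and 3.33 CPM in the healthy and 4.86, 5.44, 5.0 and 6.93 CPM in the MI mice, which did not overlap although MI 244 and Healthy 228 were close. The log2 fold change of 0.60 ± 0.22 (SE) missed the threshold (edgeR adjusted p = 0.0566). Under 7 alternatives and without Healthy 228 its adjusted p was under 0.05. Vegfb (chr19:6982473-6987651, minus strand) had 20 to 196 UMIs per mouse. It stood at 4.65, 4.13, 3.96 and 5.46 CPM in the healthy and at 7.33, 7.56, 8.99 and 7.35 CPM in the MI mice, again without overlap (log2 fold change 0.69 ± 0.16, SE, edgeR adjusted p = 0.00757). In cells thinned to 1000 UMIs the log2 fold change was 0.64 with an adjusted p of 0.175. After thinning, the share of cells with a UMI was at most 0.668% for Vegfa and 0.775% for Vegfb in any mouse. Macrophage-like cells of the same libraries had shares of 0.463% and 1.48%. For Vegfa all MI mice (0.504% to 0.668%) were above this and all healthy mice (0.151% to 0.363%) below, and for Vegfb all mice were below. Whether macrophage-like cells make these genes themselves was not tested. The comparison therefore does not decide whether the shares in EC are expression, and they are not read as such. The same limit holds where levels of macrophage-like cells are set beside those of EC further on.

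Vegfc (chr8:54077606-54187096, plus strand) stood at 67.0, 89.6, 137 and 92.1 CPM in the healthy and at 72.2, 87.1, 86.3 and 105 CPM in the MI mice. The healthy mice held both the lowest and the highest value, and the difference was not called (log2 fold change -0.22 ± 0.20, SE, edgeR adjusted p = 0.387). Pgf (chr12:85166635-85177790, minus strand) was 10.6, 7.64, 35.0 and 24.5 CPM in the healthy and 57.6, 61.6, 58.7 and 36.9 CPM in the MI mice. The groups did not overlap, but Healthy 239 lay close under MI 256, and Healthy 227 and 228, the mice with copied cells, were the lowest. The mean rose from 19.4 ± 12.7 to 53.7 ± 11.3 CPM, with a log2 fold change of 1.35 ± 0.37 (SE, edgeR adjusted p = 0.0180). With both Healthy 227 and Healthy 228 left out, which was chosen after the values had been seen, it was 0.78 with an adjusted p of 0.0388. The thinned share of cells with a Pgf UMI was 1.15% ± 0.778 and 3.47% ± 0.935. Macrophage-like cells held 12.8 CPM of Pgf and a share of 1.02%, less than the EC of any MI mouse, while the shares of the healthy mice, 0.545%, 0.456%, 2.05% and 1.54%, lay on both sides of it. With copied cells kept the share in Healthy 228 was 1.41%, and the log2 fold change over all EC was 1.12 (adjusted p = 0.00955).

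**Figure D2:**
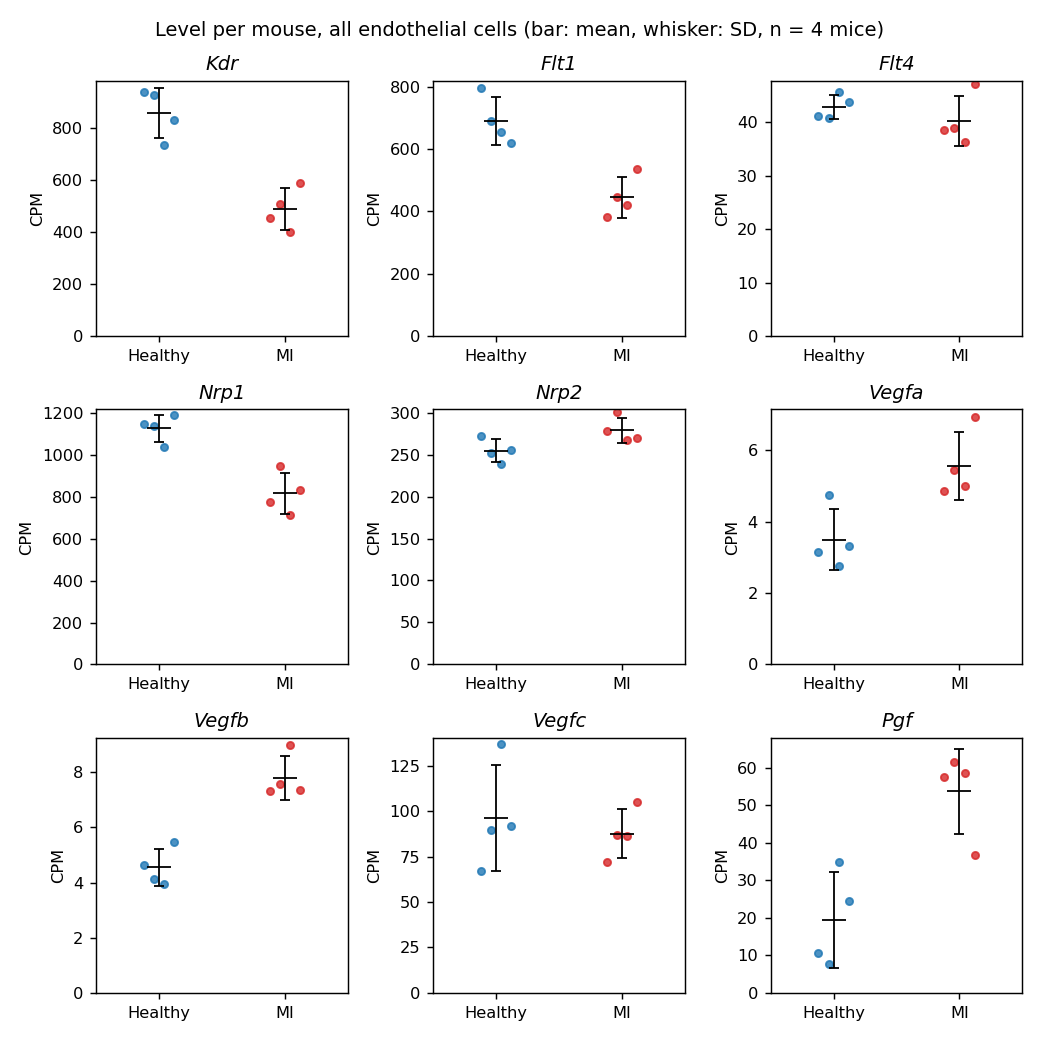
Level of the 9 genes in the EC of each mouse (y axis, CPM, each panel from 0 on its own scale; points are mice, the bar is the mean and the whisker the SD over 4 mice). Kdr, Flt1 and Nrp1 lie lower in all MI mice, Vegfa, Vegfb and Pgf lie higher in all MI mice, and Flt4, Nrp2 and Vegfc overlap.

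The remaining VEGF ligand, Figf (VEGF-D, another ligand of VEGFR3), had 0 to 3 UMIs in the EC of a healthy mouse and 11 to 32 in those of an MI mouse and was too low to test. In fibroblast-like cells it stood at 73.8 CPM. Members of the system were also detected in the other sorted cells. Of macrophage-like cells, 9.45% held a Kdr UMI, 8.99% a Flt1 UMI and 21.4% a Nrp1 UMI after thinning, against 45.1%, 40.5% and 58.8% of all EC. Their Cdh5 level, a gene that marks EC, was 250 CPM, against 1052 CPM in the EC cluster led by early response genes such as Fos and Egr1. Median depths before thinning were 7407 UMIs in macrophage-like cells and 3169 in EC. Pericyte-like cells held 407 CPM of Flt1, 148 CPM of Pgf and 169 CPM of Vegfc beside 371 CPM of Cdh5. Pgf and Vegfb, the ligands called higher after MI, stood at 60.4 and 35.2 CPM in fibroblast-like cells. These types were left out of the sums, and their levels are pooled values with no test.

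The EC were then sorted into classes by the UMIs of 1 marker in thinned cells, none of them a member of the system. In this order, cells with Top2a were called cycling, with Gja4 arterial, with at least 2 UMIs of Plvap Plvap-high, with Apln sprouting and with Car4 capillary, and the rest unmarked. Values were used from mice with at least 20 cells of a class. The Plvap-high class had 1 to 4 cells in a healthy mouse and 98 to 517 in an MI mouse, so that its values come from MI mice only. The cycling class reached 20 cells in 2 healthy mice, Healthy 227 and 240. Capillary cells made up 19.8% to 24.7% of the cells in healthy and 3.40% to 12.9% in MI mice. Sprouting cells made up 1.82% to 4.09% and 6.32% to 10.35%. Each class was compared with all other EC of the same mouse, with the mouse as a block. Of the 9 members, 7 were called in the capillary class (18.1% of all genes tested there), 8 in the arterial class (27.4%), 4 in the sprouting class (14.3%), 7 in the Plvap-high class (28.2%) and 8 in the cycling class (32.5%). Flt4 was called in none of the 5, with log2 differences from -0.13 to 0.20.

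Kdr was highest in capillary cells, at 1008 ± 74.3 CPM in healthy and 658 ± 44.7 CPM in MI mice (SD, n = 4 mice each). Relative to the other EC of the same mice, capillary cells held more of it (log2 difference 0.41, edgeR adjusted p = 8.90e-09). Arterial cells held less (-0.26, adjusted p = 2.82e-04, and -0.49 with at least 2 Gja4 UMIs per cell), and so did cycling (-0.45, adjusted p = 9.93e-04) and Plvap-high cells (-0.61, adjusted p = 2.89e-06). In healthy mice the order was capillary, unmarked, arterial, sprouting and cycling, and only capillary and unmarked cells did not overlap between mice among neighbours in that order. In MI mice the lowest class was Plvap-high, at 324 ± 41.9 CPM, which overlapped with cycling cells at 393 ± 52.8 CPM.

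Flt1 had a different order. It was highest in arterial cells, at 975 ± 124 CPM in healthy and 643 ± 87.9 CPM in MI mice, with a log2 difference from the other EC of 0.54 (edgeR adjusted p = 3.08e-11), and slightly higher in capillary cells (0.12, adjusted p = 0.0143, not called without MI 244 or MI 250, or when classes could overlap, a cell counting in each class whose marker it held, and 0.21 with at least 2 Car4 UMIs per cell). Sprouting cells stood at 254, 302, 280 and 301 CPM in the healthy and at 268, 297, 325 and 315 CPM in the MI mice. All 8 values were under the lowest unmarked, capillary or arterial value of any mouse, and the log2 difference from the other EC was -0.84 (adjusted p = 1.63e-07). Cycling cells were lower too (-0.92, adjusted p = 5.12e-05), with 243 ± 40.1 CPM in 2 healthy and 277 ± 23.1 CPM in 4 MI mice. Plvap-high cells, the lowest for Kdr, were not low for Flt1 (504 ± 81.9 CPM, log2 difference 0.21, adjusted p = 0.0194, not called without MI 244 or MI 250).

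The neuropilins divided the classes in their own way. Nrp1 was higher in capillary cells (log2 difference 0.30, edgeR adjusted p = 2.52e-05), at 1194 ± 52.5 CPM in healthy and 1088 ± 81.1 CPM in MI mice. It was lower in arterial (-0.20, adjusted p = 3.78e-04), cycling (-0.47, adjusted p = 1.79e-04) and Plvap-high cells (-0.74, adjusted p = 3.82e-07). Nrp2 was lowest in arterial cells, at 32, 60.9, 73.8 and 82.5 CPM in the healthy and 108, 121, 90.3 and 90.9 CPM in the MI mice. No other class of any mouse with at least 20 cells came as low (log2 difference -1.66, adjusted p = 1.48e-16). The mean of Nrp2 was highest in sprouting cells, at 528 ± 93.7 CPM in healthy and 380 ± 38.1 CPM in MI mice (log2 difference 0.74, adjusted p = 9.42e-08). Cycling cells came next, at 483 CPM in 2 healthy mice and 310 CPM in MI mice, and overlapped with sprouting cells in both groups. Cycling (0.29, adjusted p = 0.0404) and Plvap-high cells (-0.25, adjusted p = 0.0485) differed little, and both calls were lost without MI 244 (-0.11 for Plvap-high cells) or MI 250, the former also without Healthy 227 (0.18) or MI 256 or with at least 2 Top2a UMIs per cell (0.17) and the latter without MI 255 or, at -0.01, with classes from unthinned cells.

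Among the classes, Vegfc was highest in arterial cells. They held 233, 447, 409 and 438 CPM in the healthy and 211, 269, 211 and 334 CPM in the MI mice. The log2 difference from the other EC was 1.96 (edgeR adjusted p = 2.53e-17). The next class, unmarked cells, stood at 97.9 ± 27.0 and 85.2 ± 10.99 CPM without overlap in either group. By cluster, with no test, the one led by Fbln5 and Gja4 held 391 ± 59.2 CPM of Vegfc (SD, n = 8 mice), and the one led by Igfbp5, Eln and Igf1, among whose leading genes are the venous genes Nr2f2 and Vwf, held 197 ± 67.9 CPM. Capillary cells were lowest, at 19.2 ± 8.45 and 34.8 ± 10.4 CPM (-1.76, adjusted p = 3.84e-11), and sprouting (-0.99, adjusted p = 2.21e-06), Plvap-high (-0.84, adjusted p = 1.04e-05) and cycling cells (-0.49, adjusted p = 0.0108) were lower than the other EC as well. With classes from unthinned cells the Plvap-high value was -0.47 and the cycling value -0.75, and after another random thinning the cycling value was -0.84, all of them called.

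Among the classes of the healthy heart, Pgf was highest in sprouting cells. These held 155, 70.5, 268 and 138 CPM in the 4 healthy mice, while the mean in healthy arterial, unmarked and capillary cells was 19.4 ± 18.2, 14.5 ± 10.2 and 4.83 ± 4.90 CPM. Cycling cells, next under sprouting cells, held 7.74 CPM in Healthy 227 and 53.6 CPM in Healthy 240. No healthy mouse with at least 20 cells of another class reached the lowest sprouting value. The 56 lymphatic-like cells, pooled over the mice, held 283 CPM of Pgf, from 82 UMIs. Over all 8 mice the log2 difference of sprouting cells from the other EC was 1.80 (edgeR adjusted p = 2.37e-07). Arterial cells held more as well (0.61, adjusted p = 4.95e-05, and 0.41 without MI 255). Capillary (-1.33, adjusted p = 2.63e-08) and Plvap-high cells (-2.08, adjusted p = 2.24e-05) held less Pgf than the other EC, the latter by -0.61 with classes from unthinned cells. Cycling cells differed by -0.69 (adjusted p = 0.00197), and this was not called with classes from unthinned cells (-0.12) or from another random thinning (-0.35).

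The counts of Vegfa and Vegfb by class were small. In cycling cells Vegfb had 3 and 4 UMIs in the 2 healthy mice and 17 to 26 in the MI mice (17.5 ± 8.02 CPM, SD, n = 4 MI mice), a log2 difference from the other EC of 1.20 (edgeR adjusted p = 6.16e-04), while macrophage-like cells held 15.1 CPM of Vegfb and 6.53 CPM of Vegfa, so no order of the classes is read from either gene. Vegfa was higher in arterial cells (0.78, adjusted p = 0.00959) and cycling cells (0.95, adjusted p = 0.0215) and lower in capillary (-0.99, adjusted p = 0.0139) and Plvap-high cells (-1.38, adjusted p = 0.00559). Each of these 4 calls for Vegfa was lost under at least 1 alternative or without 1 mouse, MI 244 for arterial, MI 250 for capillary, MI 250 or MI 256 for cycling and MI 255 for Plvap-high cells. With classes from unthinned cells the arterial value was 0.24 (adjusted p = 0.310) and the capillary value -0.55, with at least 2 Gja4 UMIs per cell the arterial value was 1.31, and after another random thinning the Plvap-high value was -0.90 (adjusted p = 0.0797). Vegfb was lower in arterial (-0.94, adjusted p = 0.00466) and capillary cells (-0.90, adjusted p = 0.0145), and neither was called after another random thinning (-0.50 and -0.39). The arterial value was -0.33 (adjusted p = 0.127) with classes from unthinned cells, and the capillary value -2.26 with at least 2 Car4 UMIs per cell.

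**Figure D3:**
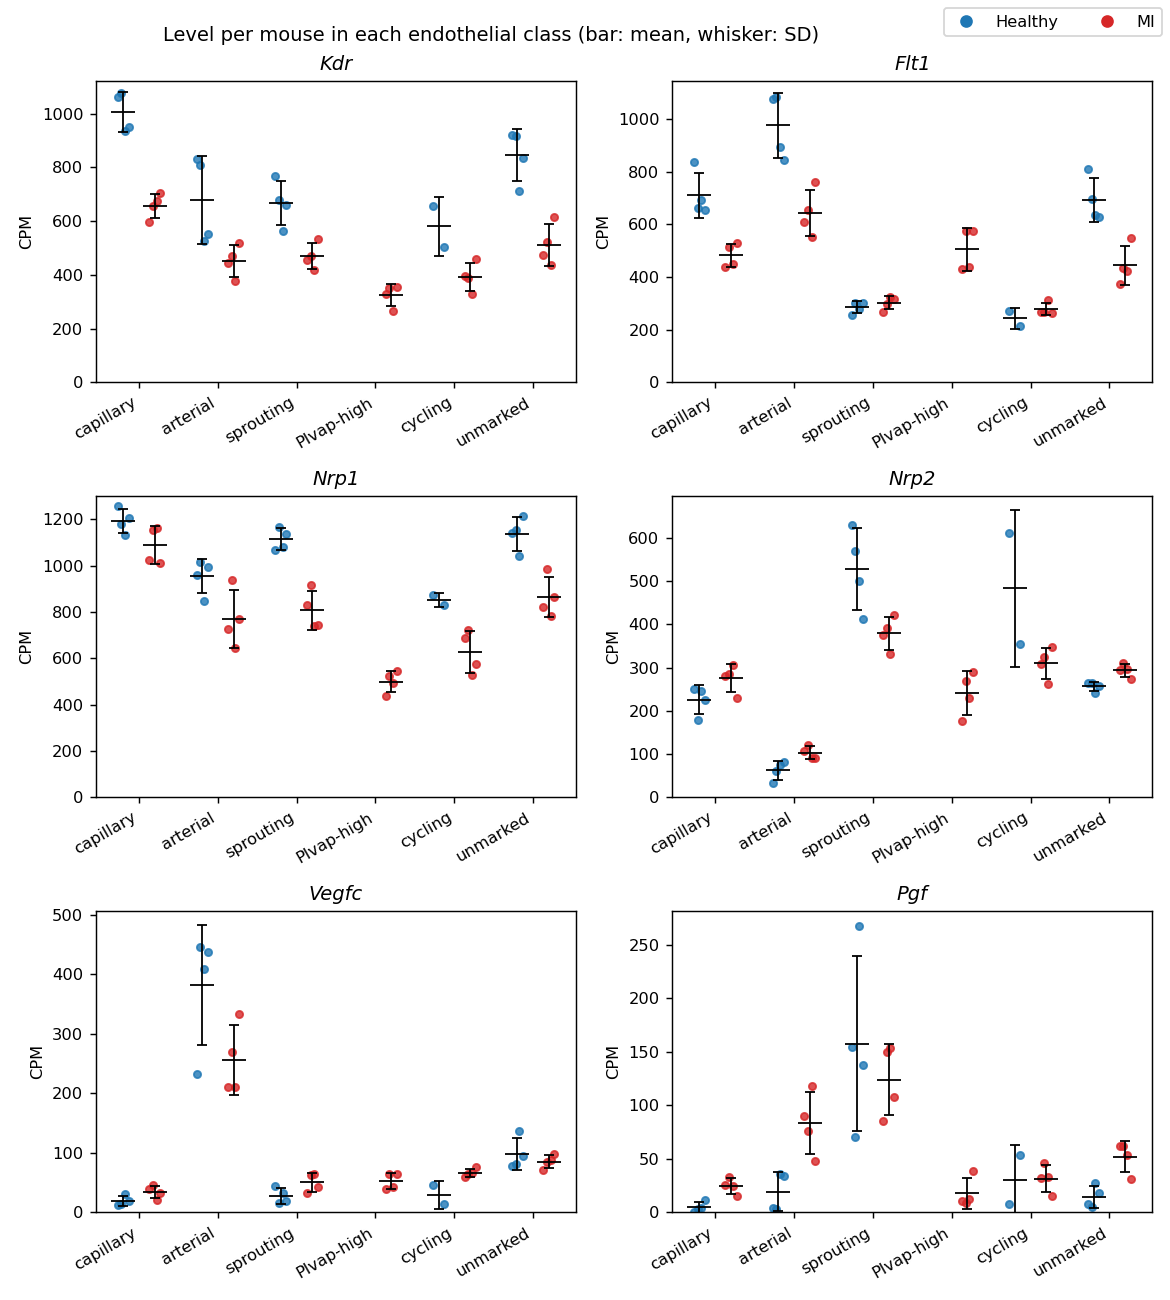
Level of 6 genes in each EC class (y axis, CPM; blue points are healthy and red points MI mice with at least 20 cells of the class, the bar is the mean and the whisker the SD; 4 mice each, but 2 healthy mice for cycling and none for Plvap-high). Flt1 is low in sprouting and cycling cells of both groups, Nrp2 is low and Vegfc high in arterial cells, and among the healthy classes Pgf is highest in sprouting cells.

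Classes were made by a threshold on 1 marker, so each can hold different cells in the 2 groups. Of arterial cells, 75.5% in healthy and 63.7% in MI mice lay in the cluster led by Fbln5 and Gja4, and of sprouting cells 47.9% and 39.5% lay in the cluster led by Ift122 and Apln. Of capillary cells, the cluster led by Car4 and Timp4 held 37.2% in healthy mice, whereas the cluster led by early response genes held the most in MI mice, 31.2%. Of arterial cells of MI mice, 10.98% lay in a cluster whose leading genes include Igfbp3 and Pgf itself (152 CPM), and 99.5% of the cells of that cluster came from MI mice. Of unmarked cells, 24.9% in healthy mice lay in the cluster led by Tgtp2 and Ly6c2 and 24.4% in the one led by Car4, whereas in MI mice 19.6% lay in the early response cluster, 15.9% in the Apln cluster (98.3 CPM of Pgf) and 14.5% in the one led by Igfbp5. MI was compared with healthy within each class that had at least 2 mice per group. Calls made up 15.2% of all genes tested in capillary, 13.7% in arterial, 6.02% in sprouting, 33.3% in unmarked and 0.0782% in cycling cells. Vegfa and Vegfb passed the filter on low counts in unmarked and cycling cells alone, so 7 members were tested in the other 3 classes. Of the members, 4 of 7 were called in capillary, 4 of 7 in arterial, 3 of 7 in sprouting, 5 of 9 in unmarked and 0 of 9 in cycling cells, where 7 of 8949 genes were called in all. The unmarked calls were Kdr, Flt1, Nrp1, Pgf and Vegfb. Vegfb went from 4.02 ± 0.243 to 7.31 ± 0.476 CPM there without overlap (log2 fold change 0.78, edgeR adjusted p = 0.00499, not called with classes from unthinned cells), under the 15.1 CPM of macrophage-like cells, and is not read as a change of expression.

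Kdr fell after MI in 4 classes. The log2 fold changes were -0.69 in capillary (edgeR adjusted p = 0.00126), -0.63 in arterial (adjusted p = 0.0138), -0.58 in sprouting (adjusted p = 0.0207) and -0.81 in unmarked cells (adjusted p = 0.00167). The arterial call was lost without Healthy 228 (adjusted p = 0.0571) or MI 255 (adjusted p = 0.0506), and the sprouting call without Healthy 227, MI 244, MI 250 or MI 255 (adjusted p from 0.0535 to 0.0725). With at least 2 UMIs of the marker per cell in place of 1, neither was called (-0.74, adjusted p = 0.0868, and -0.36, adjusted p = 0.605). Flt1 fell by 0.63, 0.65 and 0.72 on the log2 scale in capillary, arterial and unmarked cells (adjusted p = 0.00344, 0.00323 and 0.00304). In sprouting cells, where it was already low in healthy mice, its log2 fold change was 0.00 ± 0.13 (SE, adjusted p = 0.998). The difference between sprouting and other EC in the effect of MI on Flt1 was 0.74 ± 0.11 on the log2 scale (test of the interaction, adjusted p = 2.19e-06), and 1.21 with at least 2 Apln UMIs per cell. For Kdr this difference was 0.39 ± 0.09 (adjusted p = 0.00223), as Kdr fell less in sprouting cells than in the other EC.

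Nrp1 fell in sprouting cells (log2 fold change -0.55, edgeR adjusted p = 0.0148, not called without MI 255 or, at -0.18, with at least 2 Apln UMIs per cell) and in unmarked cells (-0.48, adjusted p = 0.00401, and -0.32 with classes from unthinned cells). In arterial cells the change of -0.36 was not called (adjusted p = 0.064). In capillary cells the change was -0.21 (adjusted p = 0.170), and the effect of MI there differed from that in the other EC by 0.34 ± 0.06 (test of the interaction, adjusted p = 0.00128). Nrp2 went from 528 ± 93.7 to 380 ± 38.1 CPM in sprouting cells (-0.54, adjusted p = 0.0421). Its values after MI there were 376, 392, 331 and 422 CPM against 630, 569, 501 and 412 CPM, so MI 256 lay above Healthy 240, and the call was lost when any of Healthy 227, 228 and 239 or MI 244, 250 and 255 was left out, or with at least 2 Apln UMIs per cell (-0.49). The difference in its MI effect between sprouting and other EC was -0.52 ± 0.10 (adjusted p = 2.88e-04, not called with at least 2 Apln UMIs per cell). In arterial cells the Nrp2 change was 0.58 and just missed the threshold (adjusted p = 0.0548), with all MI mice above all healthy mice. Its changes in capillary (0.21, adjusted p = 0.248) and unmarked cells (0.11, adjusted p = 0.270) were not called either.

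Pgf was called higher after MI in capillary, arterial and unmarked cells. Of the clusters with the largest shares of capillary cells, those led by Car4 (37.2%) and by Tgtp2 (33.5%) in healthy mice held 4.45 and 1.83 CPM of Pgf over both groups and that of early response genes (31.2%) in MI mice held 26.8 CPM, and the part of such shifts between clusters in the values was not tested. In capillary cells it stood at 0, 3.16, 4.55 and 11.6 CPM in the healthy and at 25.4, 32.9, 24.9 and 15.0 CPM in the MI mice, with no overlap (log2 fold change 2.25 ± 0.48, SE, edgeR adjusted p = 0.00728). With overlapping classes the capillary value was 1.21 (adjusted p = 0.0480). The healthy capillary sums rest on 0 to 15 Pgf UMIs per mouse. Macrophage-like cells held 12.8 CPM of Pgf, above all healthy and below all MI capillary values. The healthy capillary level is therefore not read as expression, nor is the size of the capillary change read. In arterial cells Pgf stood at 4.56, 2.90, 36.2 and 34.1 CPM and at 90.3, 76.5, 118 and 48.3 CPM (1.78 ± 0.39, adjusted p = 0.00620), and again all MI mice were higher. The change in unmarked cells was 1.71 ± 0.39 (adjusted p = 0.00839). In sprouting cells the MI mice held 85.1, 150, 153 and 108 CPM, which lay within the range of the healthy mice (-0.49 ± 0.27, adjusted p = 0.312). The MI effect in sprouting cells differed from that in the other EC by -2.06 ± 0.22 on the log2 scale (test of the interaction, adjusted p = 1.61e-10). Interactions called over all genes came to 3.92% in the sprouting class, and 5 of the 9 members were called there.

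Vegfc fell in arterial cells after MI (log2 fold change -0.66 ± 0.19, SE, edgeR adjusted p = 0.0270). In capillary cells, where it was lowest, the log2 fold change was 0.85 ± 0.27 (adjusted p = 0.0462), but it was 0.22 (adjusted p = 0.558) with classes from unthinned cells and 0.49 (adjusted p = 0.204) after another random thinning, and not called with overlapping classes (0.66, adjusted p = 0.111) or copied cells kept (0.79, adjusted p = 0.0503). Macrophage-like cells held 22.0 CPM of Vegfc, between the capillary means of 19.2 CPM in healthy and 34.8 CPM in MI mice, so the capillary level is not read as expression, nor the change and the interaction in that class as a change of expression. The arterial call was lost without any of Healthy 228, 239 and 240 or MI 244, 250 and 255, and the capillary call without any of Healthy 227, 228 and 240 or MI 244, 250 and 256. In sprouting cells the change of 0.83 was not called (adjusted p = 0.179). The interactions were 1.31 ± 0.20 for capillary (adjusted p = 1.07e-04), -0.47 ± 0.13 for arterial (adjusted p = 0.0328) and 1.21 ± 0.29 for sprouting cells (adjusted p = 0.00575). The capillary one was 0.79 (adjusted p = 0.00114) with classes from unthinned cells and not called with at least 2 UMIs of the marker per cell (1.13, adjusted p = 0.411). The arterial one was -0.83 with classes from unthinned cells, -0.19 (adjusted p = 0.774) with 2 UMIs of the marker, and not called without Healthy 228 (-0.31), Healthy 240 or MI 255, nor the sprouting one, which was 3.35 (adjusted p = 0.0320) with at least 2 Apln UMIs per cell, without Healthy 239 or Healthy 240. In the capillary class 1.37% of all genes and 2 of 9 members had a called interaction, in the arterial class 1.91% and 2 of 9, and in the cycling class, with 2 healthy mice, 4.03% and 2 of 9. The cycling interactions were 1.11 ± 0.20 for Flt1 (adjusted p = 4.64e-04) and 0.53 ± 0.14 for Kdr (adjusted p = 0.0248, not called without MI 244 or MI 255).

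**Figure D4:**
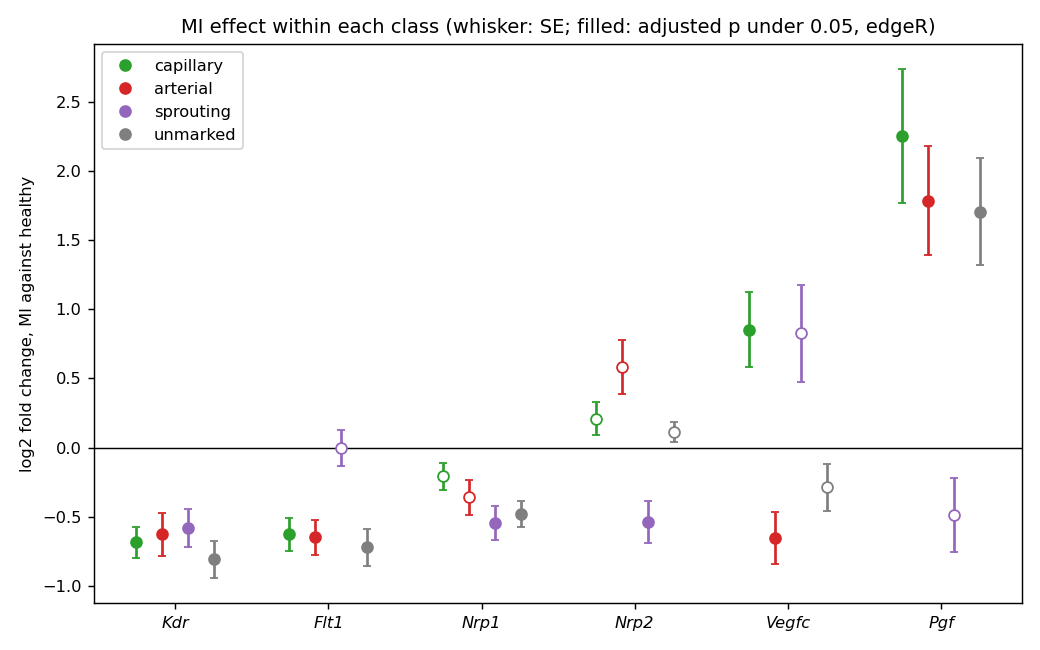
Log2 fold change of MI against healthy (y axis) for 6 genes in capillary, arterial, sprouting and unmarked cells (colours), fitted by edgeR on sums of 4 healthy and 4 MI mice; whiskers are the SE and filled points have an adjusted p under 0.05. Flt1 is at 0.00 in sprouting cells and from -0.72 to -0.63 in the others, and Pgf is at -0.49 in sprouting cells and from 1.71 to 2.25 in the others.

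Genes that the members touch were read from lists, over all EC. Of the ligands and co-receptors shared by the neuropilins, such as class 3 semaphorins and plexins, 9 were tested, of which 4 were higher and 2 lower after MI. For this and the following lists, 18.8% of all genes tested were higher and 19.1% lower, and nothing is read from a list as a whole. Sema3f, a semaphorin that binds Nrp2, rose from 21.2 ± 3.65 to 50.1 ± 4.15 CPM (log2 fold change 1.15 ± 0.12, SE, edgeR adjusted p = 2.70e-04). Gipc1, which binds the tail of Nrp1 inside the cell, rose by 0.63, whereas the receptor Plxna2 fell from 79.3 ± 7.85 to 43.5 ± 7.18 CPM (-0.95, adjusted p = 6.98e-04) and Sema3g fell by 0.64. The median log2 fold change over the list was 0.00, and over all genes tested it was -0.02.

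Of 15 partners of VEGFR2 at the membrane, 5 were higher, 2 lower and 8 not called, with a median log2 fold change of 0.06. Ptprb, the phosphatase VE-PTP that acts on VEGFR2 and Tie2, fell from 737 ± 184 to 408 ± 66.3 CPM (-0.94 ± 0.19, SE, edgeR adjusted p = 0.00416). The epsins, adaptors that help take VEGFR2 into the cell, moved apart, with Epn2 lower (-0.78, adjusted p = 0.00663) and Epn1 higher (0.38, adjusted p = 0.00381). Mmrn2, a matrix protein of endothelium, was higher (0.26, adjusted p = 0.0377). Of 39 tested genes of signalling downstream of the receptors, 3 were higher, 5 lower and 31 not called, with a median of -0.05. The adaptor Nck1 was among those that fell (-0.70, edgeR adjusted p = 4.14e-04), and Mapkapk2 (0.45, adjusted p = 0.00551) and Bad (0.39, adjusted p = 0.00438) rose the most of those averaging 20 CPM or more.

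Of 16 genes known to be induced by VEGF in endothelium, 9 were higher and 2 lower after MI, with a median log2 fold change of 0.58. Mmp14, a membrane protease, rose from 7.65 ± 2.17 to 75.9 ± 23.3 CPM (3.24 ± 0.25, SE, edgeR adjusted p = 1.27e-04), and Plaur, the urokinase receptor, from 18.2 ± 7.82 to 48.4 ± 10.0 CPM (1.31, adjusted p = 0.00545). Dll4, a Notch ligand of tip and arterial cells, fell from 165 ± 31.1 to 122 ± 14.1 CPM (-0.52, adjusted p = 0.0171). Of 8 genes of oxygen sensing, 2 were higher and 1 lower. Hif1a, whose product drives Vegfa in low oxygen, rose from 51.4 ± 6.45 to 105 ± 19.2 CPM (0.95, adjusted p = 9.95e-04), and Epas1, which encodes HIF-2α, fell from 357 ± 38.4 to 240 ± 64.4 CPM (-0.66, adjusted p = 0.0150).

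The genes most like each member were sought over 42 sums per mouse and class, as the Pearson correlation of log2(CPM + 10) among 6288 other genes. The sums share mice and libraries, so these values describe the profiles and carry no test. Kdr was most like Sptbn1 (r = 0.93), Itpkb (0.93) and Gm12002 (0.92), and Gm12002 was also the closest to Nrp1 (0.92), followed by Tspan13 (0.91) and Tcf15 (0.90). Flt1 was closest to Phf1 (0.93), Acvrl1 (0.93) and Ebf1 (0.93). Nrp2 was closest to Adgrl2 (0.92), Lama4 (0.88) and Neurl3 (0.87). Vegfc followed Gja4 (0.93), the marker that defined the arterial class, with Fbln5 (0.93) and Pcsk5 (0.91). Flt4 (Rbbp6 at 0.70, Rc3h2 at 0.69, Rprd2 at 0.68) and Pgf (Csrp1 at 0.75, Myl12a at 0.75, Rhoc at 0.75) had no gene as close. Among the members, Kdr and Nrp1 were the most alike (0.89), Kdr and Flt1 much less so (0.43), and Nrp2 ran against Flt1 (-0.78) and Vegfc (-0.74).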

How the data were processed

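The authors counted reads with Cell Ranger on mm10 (Ensembl annotation) and deposited 1 table of counts of UMIs per gene and cell, not normalized, which had passed their limits on genes and mitochondrial UMIs. The submitters' processing notes name Cell Ranger, R 3.5.2 and Seurat 2.3. Clusters were made again (Seurat 5.3.0, R 4.3.3, 32 principal components, resolution 0.6), and haematopoietic-, pericyte-, fibroblast-, erythroid- and platelet-like clusters and copied cells were left out, while lymphatic-like cells and a cluster led by cardiomyocyte genes were kept. Scrublet in scanpy 1.11.5 marked 2 doublets, so an alternative left out the 995 cells with the highest scores. Counts were summed per mouse, or per mouse and class, and tested with edgeR 4.0.16 (TMM, filterByExpr, quasi-likelihood test, Benjamini-Hochberg adjustment over all genes tested, calls at 0.05). The code was tested on simulated data. DESeq2 1.42.0 and limma-voom (limma 3.58.1) were alternatives. Sequences are from RefSeq and gene positions from GENCODE, both on GRCm38. The count test for classes left out cells under 1000 UMIs.

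The members, gene lists and class markers were chosen with earlier results of these data known. Each list is illustrated by its called genes averaging 20 CPM or more, namely the top 2 and bottom 2 by log2 fold change, and each member at that level by the 3 genes most like it. A result that this rule would name is not reported here. Intervals and tests rest on 4 mice per group, and nothing in the labels says whether mice shared a litter or a day.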

Additional observations from a re-analysis of the deposited data

Results flagged for a closer look

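In 7 of 130 groups of 4 mice examined, 1 mouse stood far from the other 3 (its gap to the nearest mouse took more than Dixon's 95% limit of the range), which chance gives in about 1 of 20 groups, so that about as many are expected. Over all EC these were Vegfb in MI 255 (8.99 CPM, high) and Pgf in MI 256 (36.9 CPM, low), whose share of thinned cells with a Pgf UMI was low as well (2.08%). In sprouting cells MI 256 was high for Flt4 (44.1 CPM) and low for Vegfb (4.41 CPM), and in Plvap-high cells it was high for Pgf (39.1 CPM). In cycling cells MI 255 was high for Flt1 (312 CPM). MI 256 accounts for 5 of the 7, and it was also the MI mouse with the fewest EC UMIs, 14284248.

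In 11 cases the effect of MI in a class differed from that in the other EC by the test of the interaction (edgeR, adjusted p under 0.05). In sprouting cells these log2 differences were -2.06 for Pgf, 1.21 for Vegfc, 0.74 for Flt1, -0.52 for Nrp2 and 0.39 for Kdr. In capillary cells they were 1.31 for Vegfc, whose level there was near that in macrophage-like cells, and 0.34 for Nrp1. In arterial cells they were -0.47 for Vegfc and 0.30 for Kdr, the latter not called without Healthy 239, Healthy 240, MI 244, MI 250 or MI 255, with overlapping classes or with at least 2 Gja4 UMIs per cell. In cycling cells they were 1.11 for Flt1 and 0.53 for Kdr, with 2 healthy mice. The other EC differed in their shares of classes between the groups, and the part of this in the differences was not tested.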

How the results depend on the processing

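Over all EC, the calls for Kdr, Flt1, Nrp1 and Pgf held in every alternative run, with log2 fold changes from -0.93 to -0.76, from -0.75 to -0.59, from -0.58 to -0.47 and from 0.78 to 1.49. With 1 mouse left out at a time they ran from -1.0 to -0.80, from -0.82 to -0.64, from -0.63 to -0.48 and from 1.11 to 1.78, those of Vegfb from 0.62 to 0.79, of Nrp2 from 0.01 to 0.07, of Vegfc from -0.37 to -0.01, of Flt4 from -0.26 (called without MI 256) to -0.12, and of Vegfa from 0.48 to 0.77 (called without Healthy 228). Vegfa was also called with copied cells kept (0.62), thinned cells (1.03), at least 800 genes per cell (0.63), library size in place of TMM (0.68), DESeq2 (0.61), both Healthy 227 and Healthy 228 left out (0.78) and the cluster led by cardiomyocyte genes left out (0.61). In thinned cells Vegfb was not called (0.64), Vegfc changed sign (0.084), and 1333 genes were called higher and 1321 lower; thinning leaves fewer UMIs to test, and no other cause was tested. The last 2 alternatives for Vegfa, and one without lymphatic-like cells, were chosen after seeing the data. Of the class results called, 82 of 846 values under alternatives or without 1 mouse lost the call and none changed sign. No paired analysis was possible because the groups share no replicate numbers. The paper used male and female mice. Xist, a transcript of female cells, stood at 1.66 CPM in Healthy 227 and 0.51 CPM in MI 244, and at 1012 to 1182 CPM in the other mice. With Xist status as a covariate the calls over all EC for Kdr, Flt1, Nrp1, Vegfb and Pgf held. Counting error limits Vegfa, Vegfb and Figf, and every class of few cells.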
